A study of Mus musculus with 8 samples.

Results

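Angiogenic ligands and hypoxia signals were examined in the dental pulp of *Tgfbr2cko* mice as a group of 10 genes chosen by symbol: the VEGF family ligands *Vegfa*, *Vegfb*, *Vegfc*, *Vegfd* and *Pgf*, the angiopoietins *Angpt1* and *Angpt2*, the hypoxia-inducible factor subunits *Hif1a* and *Epas1*, and the oxygen sensor *Egln3*. Of these, 8 are among the 12148 genes of the expression table. *Vegfc* and *Egln3* are absent from it, and only their promoter windows were examined. RNA came from first molar pulp of C57BL/6J mice at postnatal day 7 (P7), from 4 Osterix-Cre controls and 4 *Tgfbr2cko* mutants. An Osterix promoter drives Cre recombinase in both groups, in dental mesenchyme and odontoblasts. Only the mutants also carry loxP-flanked *Tgfbr2*, the type II TGFβ receptor gene, which is deleted where Cre is made. Each sample joined the pulps of both sides, dissected away from the hard tissue and the enamel-forming epithelium. The whole pulp was sequenced, so that RNA of vessel and immune cells is mixed with that of the mesenchyme. The library titles carry a further number that no source explains and that repeats within a genotype, leaving 3 distinct numbers among the controls and 2 among the mutants. Whether the libraries of a genotype came from separate animals is not stated, so the p-values measure the spread between these libraries, which may be technical in part.

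Blood vessels grow into the molar pulp while the dentin is being laid down. VEGF ligands act on endothelial cells through tyrosine kinase receptors and drive sprouting, whereas the angiopoietins act through the receptor Tie2, encoded by *Tek*: *Angpt1*, made mainly by perivascular and mesenchymal cells, stabilizes vessels, and *Angpt2*, made mainly by endothelial cells, loosens them for remodeling. When oxygen is low, the prolyl hydroxylases no longer mark the HIF alpha subunits for degradation, and HIF raises the transcription of *Vegfa* and of glycolysis genes. That control acts on the HIF protein, so the transcript levels of *Hif1a* and *Epas1* are not a measure of HIF activity.

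*Angpt2* and *Epas1* were the 2 of the 8 genes that were altered in *Tgfbr2cko* pulp, and both were lower. *Angpt2* stood at 48.6% and *Epas1* at 50.5% of the control level. *Vegfa*, the principal VEGF ligand, and *Hif1a* differed by 0.15 and 0.09 on the log2 scale and did not pass the test. The call of an altered gene asked for 1.5-fold or more together with an unadjusted p under 0.05. Of all genes 5.77% met it, with 2.12% higher in *Tgfbr2cko* and 3.65% lower. The median log2 fold change of the 8 genes was -0.08, with 4 positive and 4 negative, against -0.005 over all genes. None of the 8 passed an adjusted p under 0.05 in limma, where 0.947% of all genes did, and 2 had an unadjusted p under 0.05; with limma's library weights 2 passed and with voom weights 0 did.

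Between 8682872 and 13539670 reads per library fell on the genes of the table, so that 1 read was worth 0.0739 to 0.115 CPM (reads scaled to a common library size). Values are log2 CPM and are listed in the order of the library numbers, with Osterix-Cre 49, 50, 51 and 52 followed by *Tgfbr2cko* 53, 54, 55 and 56. *Tgfbr2* itself stood at 7.48 ± 0.22 (SD, n = 4) in the controls against 7.20 ± 0.28 (SD, n = 4) in the mutants, p of 0.119 in limma-trend and exact permutation p = 0.143, and 2 of the 4 mutant libraries were not below the control range, *Tgfbr2cko* 56 at 7.61 and *Tgfbr2cko* 55 level with Osterix-Cre 49 at 7.16. These values count reads over the whole gene and from all cells of the pulp, so they do not measure the deletion itself. Transcripts of enamel matrix (*Ambn*, *Amelx*, *Enam*) made up 19.2% of reads in *Tgfbr2cko* 56, 2.87% in *Tgfbr2cko* 55, 2.21% in Osterix-Cre 49 and 0.334% to 0.571% in the other 5, and the fits were also run without those 3 libraries.

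**Figure D1:**
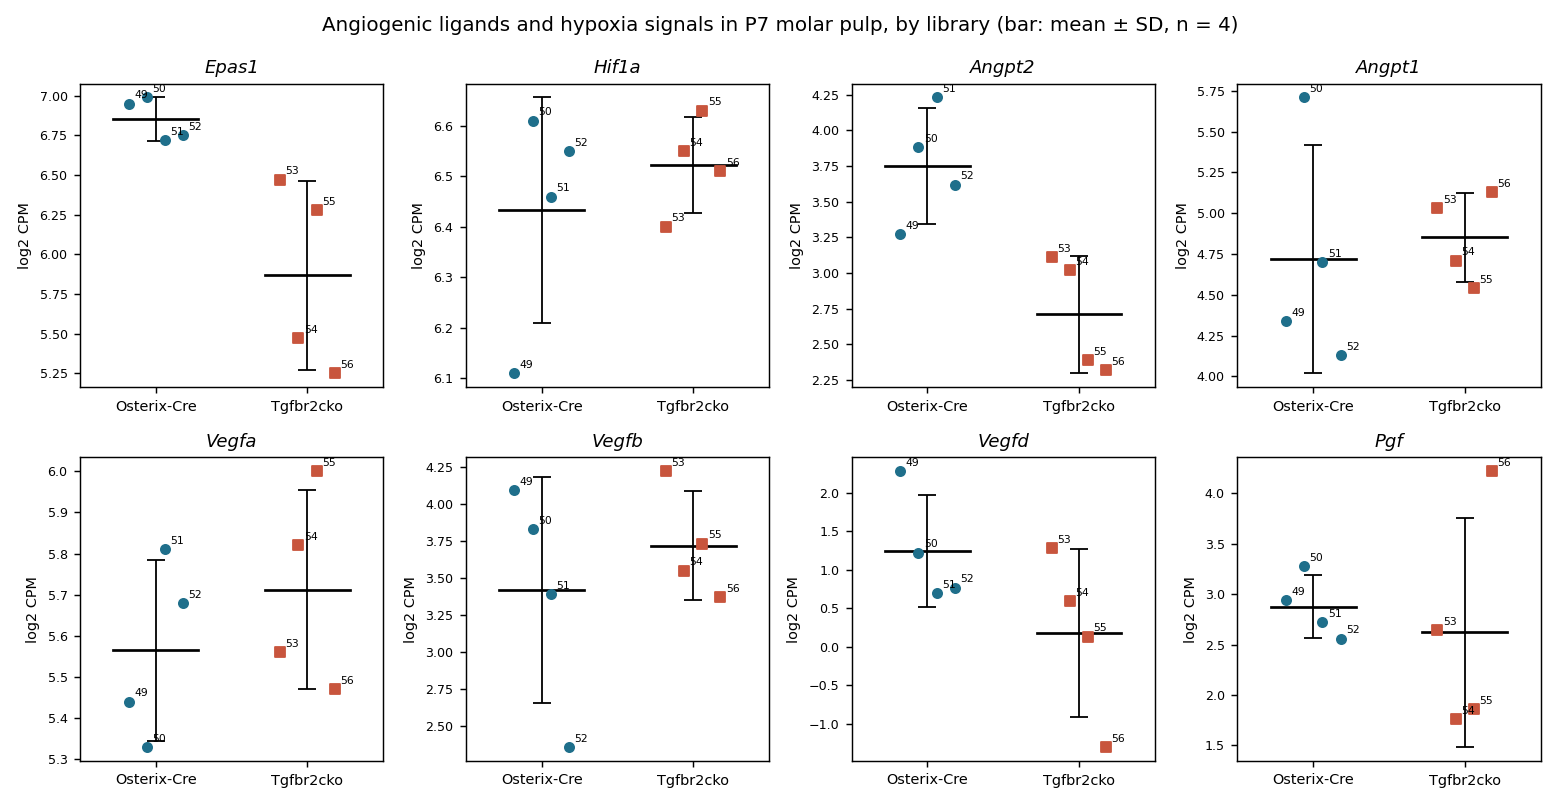
Log2 CPM of the 8 genes in each library (points) with the mean and SD of each genotype (n = 4). The 4 *Tgfbr2cko* points lie below all 4 Osterix-Cre points for *Angpt2* and *Epas1*, and the points overlap for the other 6 genes.

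*Angpt2* (ENSMUSG00000031465.6) lies on the minus strand at chr8:18690263-18741562 of GRCm38. Its values were 3.27, 3.88, 4.23 and 3.62 in the controls against 3.11, 3.02, 2.39 and 2.32 in the mutants, from 45 to 178 reads per library. Every mutant library was below every control library, although *Tgfbr2cko* 53 at 3.11 and Osterix-Cre 49 at 3.27 were close. The mean fell from 3.75 ± 0.41 (SD, n = 4) to 2.71 ± 0.41 (SD, n = 4), a log2 fold change of -1.04 (standard error, SE, 0.27, 95% interval -1.63 to -0.45), which is 2.06-fold lower. The limma-trend p was 0.00207 and the adjusted p 0.116, which ran from 0.0301 to 0.343 over the alternatives. The exact permutation test gave 0.0286, the smallest p that the 70 arrangements of 4 against 4 allow. Over all genes, 5.27% had genotypes that did not overlap. *Angpt2* stayed altered in each of the 8 fits that left out 1 library, with changes from -1.20 to -0.88. In bulk pulp, fewer cells of a type and less RNA per cell cannot be told apart.

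*Angpt1* (ENSMUSG00000022309.8, chr15:42424723-42676977, minus strand), the ligand with the opposite effect on vessels, had values of 4.34, 5.71, 4.70 and 4.13 in the controls against 5.03, 4.71, 4.54 and 5.13 in the mutants. The mutant values all lay inside the control range, which was set by Osterix-Cre 50 at its top and Osterix-Cre 52 at its bottom. The log2 fold change was 0.13 (SE 0.29, 95% interval -0.50 to 0.77), with a p of 0.656 in limma-trend and an exact permutation p of 0.743. Of its exon bases, 14.2% are shared with the antisense gene *Gm17473*, and since the strand setting of the counting is not given in the sources used here, reads there cannot be assigned to one of the genes.

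The balance of the angiopoietins was also read within each library, as the difference of the log2 values of *Angpt2* and *Angpt1*. This difference was -1.07, -1.83, -0.47 and -0.52 in the controls against -1.93, -1.69, -2.15 and -2.82 in the mutants. The values are not corrected for exon length, so that the shift between genotypes and not the sign is compared, here and for the other within-library differences. Osterix-Cre 50, the control with the most *Angpt1*, lay among the mutants. The mean difference was -0.97 ± 0.63 (SD, n = 4) in the controls against -2.15 ± 0.48 (SD, n = 4) in the mutants, a shift of -1.18 with an exact permutation p of 0.0571 and a p of 0.0714 after adjustment over the 5 within-library differences that were tested. Without the 3 libraries richest in enamel matrix reads the shift was -0.87 with an exact permutation p of 0.3, in a comparison of 3 against 2 that cannot give a p below 0.1.

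Among the VEGF ligands, none of the 4 in the table was altered with all libraries included. *Vegfa* (ENSMUSG00000023951.17, chr17:46016993-46032369, minus strand), which acts through *Flt1* and *Kdr*, had values of 5.44, 5.33, 5.81 and 5.68 in the controls against 5.56, 5.82, 6.00 and 5.47 in the mutants. The genotypes overlapped over most of their range, although the 3 highest values included *Tgfbr2cko* 54 and 55. The mean was 5.57 ± 0.22 (SD, n = 4) against 5.71 ± 0.24 (SD, n = 4), and the 95% interval of the log2 fold change, -0.22 to 0.51, holds changes of less than 1.5-fold in either direction, with a p of 0.403 in limma-trend and an exact permutation p of 0.371.

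*Vegfb* (ENSMUSG00000024962.13, chr19:6982473-6987651, minus strand), a ligand of *Flt1* that drives sprouting only weakly, had values of 4.09, 3.83, 3.39 and 2.36 in the controls against 4.22, 3.55, 3.73 and 3.37 in the mutants. The lowest value was that of Osterix-Cre 52, which had 52 reads. The log2 fold change was 0.30 (SE 0.34) with a p of 0.393 in limma-trend and an exact permutation p of 0.571, and it was -0.05 without Osterix-Cre 52.

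*Pgf* (ENSMUSG00000004791.7, chr12:85166635-85177790, minus strand), placental growth factor, binds *Flt1* and not *Kdr*. Its values were 2.94, 3.28, 2.72 and 2.56 in the controls against 2.64, 1.76, 1.86 and 4.22 in the mutants. *Tgfbr2cko* 56 was the highest of the 8 libraries, with 251 reads, and the other mutants included the 2 lowest. With all libraries the log2 fold change was -0.26 (SE 0.45, p of 0.578 in limma-trend, exact permutation p of 0.714). With library weights it was -0.71 (p of 0.0523 in limma-trend), and with the enamel matrix level as a covariate -0.64 (p of 0.143 in limma-trend). Without *Tgfbr2cko* 56 it was -0.79 with an unadjusted p of 0.02 in limma-trend, which meets the call, and without *Tgfbr2cko* 54 it was 0.03.

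*Vegfd* (ENSMUSG00000031380.10, chrX:164373378-164402650, plus strand), a ligand of the lymphatic receptor *Flt4*, was the least abundant of the 8, with 5 to 47 reads per library. It had values of 2.28, 1.22, 0.70 and 0.77 in the controls against 1.28, 0.59, 0.13 and -1.30 in the mutants. Osterix-Cre 49 was the highest and *Tgfbr2cko* 56 the lowest, and these are 2 of the 3 libraries richest in enamel matrix reads. The log2 fold change of -1.07 (SE 0.55) had a p of 0.0723 in limma-trend and an exact permutation p of 0.143. It was -1.44 with an unadjusted p of 0.0192 in limma-trend without *Tgfbr2cko* 53, which meets the call, -0.58 without *Tgfbr2cko* 56, and 0.03 without the 3 libraries richest in enamel matrix reads. With the enamel matrix level as a covariate it was -0.74 with a p of 0.203 in limma-trend.

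The receptors through which these ligands act are 7 genes, all in the table, and 6 of them had a negative log2 fold change, with a median of -0.40. *Tek*, the angiopoietin receptor, was altered and was 1.55-fold lower, so that 1 of 7 (14.3%) was altered, against 5.77% of all genes. Its values were 4.92, 5.41, 4.89 and 4.96 in the controls against 4.45, 4.32, 4.32 and 4.54 in the mutants. The genotypes did not overlap, and the mutant libraries were more alike than the controls, among which Osterix-Cre 50 was high. The mean fell from 5.04 ± 0.25 (SD, n = 4) to 4.41 ± 0.11 (SD, n = 4), with a log2 fold change of -0.64 (SE 0.17), a p of 0.00253 in limma-trend and an adjusted p of 0.124, while the exact permutation p was 0.0286. Without Osterix-Cre 50 the change was -0.51 and did not reach 1.5-fold. With library weights *Tek* passed an adjusted p under 0.05 in limma, and its adjusted p ran from 0.0423 to 0.38 over the alternatives.

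The VEGF receptors did not meet the call. *Nrp1*, the neuropilin co-receptor that also binds semaphorins, went from 7.33 ± 0.24 (SD, n = 4) to 6.77 ± 0.39 (SD, n = 4), a log2 fold change of -0.57 (SE 0.20) with a p of 0.013 in limma-trend and an exact permutation p of 0.0571, just short of 1.5-fold. It met the call in 4 of the 8 fits that left out 1 library, those without Osterix-Cre 49 or 52 or *Tgfbr2cko* 53 or 55. For *Flt1*, the receptor shared by *Vegfa*, *Vegfb* and *Pgf*, the change was -0.40 (SE 0.18) with a p of 0.048 in limma-trend and an exact permutation p of 0.0857. The lymphatic receptor *Flt4* had a log2 fold change of -0.44 (exact permutation p of 0.114), *Kdr*, the main signaling receptor of *Vegfa*, -0.24 (p of 0.343), *Tie1*, the orphan partner of *Tek*, -0.31 (p of 0.486), and the co-receptor *Nrp2* 0.17 (p of 0.629). With 1 library left out *Tie1* ran from -0.57 (without Osterix-Cre 49) to -0.09 (without *Tgfbr2cko* 53) and *Kdr* from -0.39 (without Osterix-Cre 49 or *Tgfbr2cko* 55) to -0.09 (without *Tgfbr2cko* 56). Without the 3 libraries richest in enamel matrix reads *Tie1* was -1.0 with a p of 8.88e-04 in limma-trend and *Flt1* was -0.63 with a p of 0.0131, so that both met the call, and *Nrp2* turned to -0.47. The log2 value of *Vegfa* minus that of *Flt1* in the same library was 0.62, 0.19, 0.96 and 0.60 in the controls against 0.97, 1.60, 1.10 and 0.85 in the mutants. Only Osterix-Cre 51 reached the mutant range, and the shift of 0.54 had an exact permutation p of 0.0571, or 0.0714 adjusted over the 5 differences.

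*Epas1* (ENSMUSG00000024140.9, chr17:86753700-86833410, plus strand) encodes HIF-2 alpha, the HIF subunit that is abundant in endothelial and some mesenchymal cells. Its values were 6.95, 6.99, 6.72 and 6.75 in the controls against 6.47, 5.47, 6.28 and 5.25 in the mutants, from 514 to 1231 reads per library. All 4 mutants were below all 4 controls, and they spread more widely, with *Tgfbr2cko* 54 and 56 more than 1 log2 unit below the lowest control. The mean fell from 6.85 ± 0.14 (SD, n = 4) to 5.87 ± 0.60 (SD, n = 4), a log2 fold change of -0.99 (SE 0.24, 95% interval -1.51 to -0.46), which is 1.98-fold lower. The limma-trend p was 0.00129 and the adjusted p 0.0854, which ran from 0.0129 to 0.263 over the alternatives, and the exact permutation p was 0.0286. *Epas1* stayed altered in each of the 8 fits that left out 1 library, with changes from -1.19 to -0.78.

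*Hif1a* (ENSMUSG00000021109.13, chr12:73901375-73947530, plus strand) encodes the ubiquitous HIF-1 alpha. Its values were 6.11, 6.61, 6.46 and 6.55 in the controls against 6.40, 6.55, 6.63 and 6.51 in the mutants. The genotypes overlapped, and the lowest library was the control Osterix-Cre 49. The log2 fold change was 0.09 (SE 0.15, 95% interval -0.23 to 0.41) with a p of 0.556 in limma-trend and an exact permutation p of 0.6, and the interval excludes a change of 1.5-fold. Its exons share 5.6% of their bases with the antisense gene *Gm15283* and 2.51% with *Gm49321* on the same strand.

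The log2 value of *Hif1a* minus that of *Epas1* in the same library was -0.85, -0.38, -0.26 and -0.20 in the controls against -0.08, 1.08, 0.35 and 1.26 in the mutants. The genotypes did not overlap, although *Tgfbr2cko* 53 lay close to Osterix-Cre 52. The mean was -0.42 ± 0.29 (SD, n = 4) against 0.65 ± 0.63 (SD, n = 4), a shift of 1.08 with an exact permutation p of 0.0286 and a p of 0.0714 adjusted over the 5 differences. The unadjusted p was 0.0571 when any 1 of the controls was left out and 0.0286 when any 1 of the mutants was. Without the 3 libraries richest in enamel matrix reads the shift was 0.78 with an exact permutation p of 0.1, the smallest that 3 against 2 allow.

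**Figure D2:**
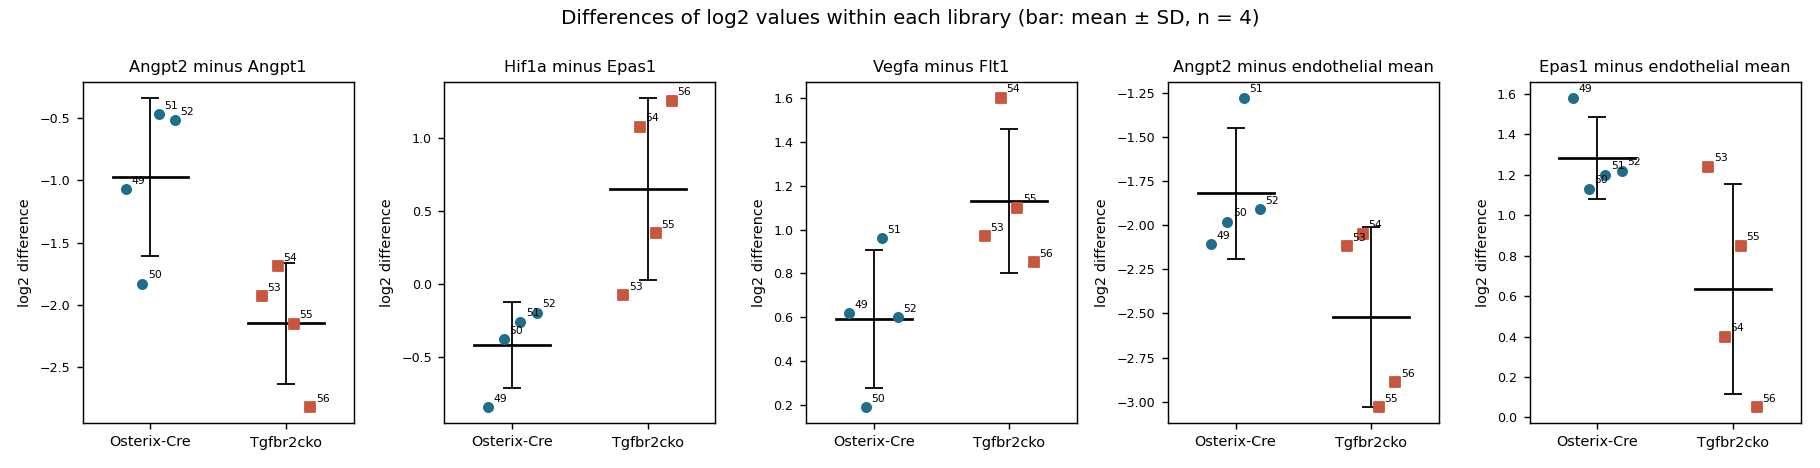
Within-library differences of log2 values for the 5 differences tested, 1 point per library, with the mean and SD of each genotype (n = 4). The *Hif1a* and *Epas1* difference is the one in which the genotypes do not overlap, with a highest control value of -0.20 and a lowest mutant value of -0.08.

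Levels of different genes were compared as CPM per kilobase of merged exons. In the controls *Epas1* was the most abundant transcript at 20.8 ± 2.03 (SD, n = 4), followed by *Hif1a* at 14.8 ± 2.17 and *Vegfa* at 11.1 ± 1.68, while *Vegfb* stood at 7.28 ± 3.22, *Angpt1* at 5.56 ± 3.06, *Angpt2* at 3.74 ± 1.05, *Pgf* at 2.55 ± 0.568 and *Vegfd* at 1.07 ± 0.627. Neighbors in this order overlapped between libraries except *Epas1* with *Hif1a* and *Pgf* with *Vegfd*. In the mutants the order of mean levels per kilobase was *Hif1a* (15.6 ± 1.04, SD, n = 4), *Vegfa* (12.4 ± 2.1), *Epas1* (11.1 ± 4.44), *Vegfb* (8.37 ± 2.27), *Angpt1* (5.62 ± 1.07), *Pgf* (2.73 ± 2.48), *Angpt2* (1.81 ± 0.512) and *Vegfd* (0.544 ± 0.347). Neighbors overlapped there except *Angpt2* with *Vegfd*. *Epas1* thus stood at rank 1 in the controls and rank 3 in the mutants, where it overlapped both neighbors, and *Angpt2* at ranks 6 and 7.

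**Figure D3:**
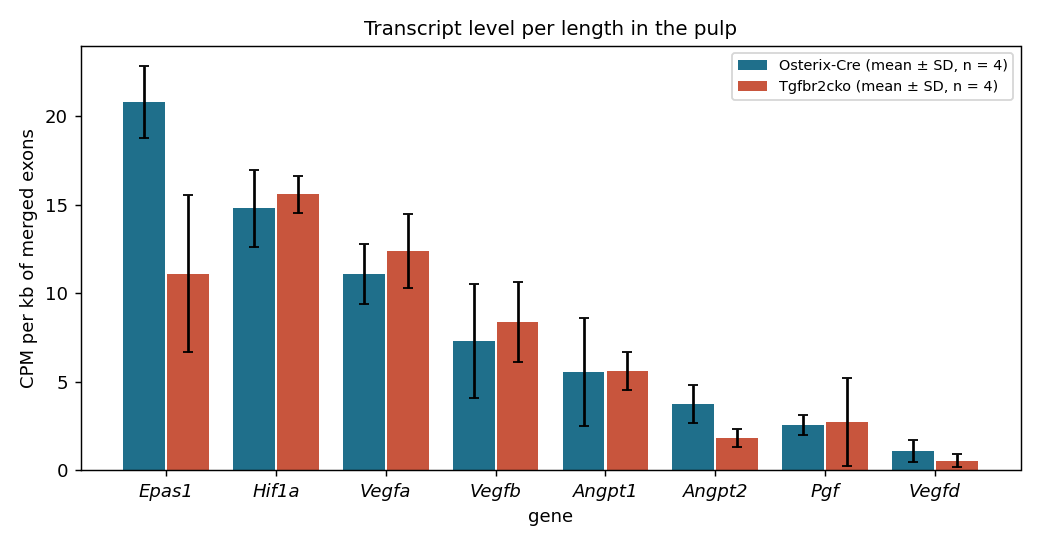
Level of the 8 genes as CPM per kilobase of merged exons, with bars for the mean and lines for the SD (n = 4 per genotype), in the order of the control means. *Epas1* leads in Osterix-Cre pulp at 20.8 and stands at 11.1 in *Tgfbr2cko* pulp, below *Hif1a* and *Vegfa*.

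Of 13 genes that act with the HIF subunits in sensing oxygen, 11 were in the table. In limma 0 were altered, where 5.77% of all genes were, and 0 had an unadjusted p under 0.05. Their median log2 fold change was -0.12. It ran from -0.51 for *Cited2*, which competes with HIF for a coactivator, to 0.32 for *Egln1*, the main prolyl hydroxylase (SE 0.30 and 0.18). *Arnt*, the HIF beta subunit, had 0.04 and *Vhl*, whose product recognizes hydroxylated HIF, had 0.14.

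Genes known to be induced through HIF changed in both directions. Of 30 listed, 27 were in the table and 6 of these (22.2%) were altered, against 5.77% of all genes, with 4 higher and 2 lower in *Tgfbr2cko* pulp. *Ldha*, *Ankrd37*, *Slc2a1* and *Hk2* rose, and of these *Ldha*, *Slc2a1* and *Hk2* encode lactate dehydrogenase A, the glucose transporter GLUT1 and a hexokinase. *Lox*, the collagen and elastin crosslinking enzyme, and *Angptl4*, an inhibitor of lipoprotein lipase, fell. None passed an adjusted p under 0.05 in limma, 7 had an unadjusted p under 0.05, and 3 had genotypes that did not overlap, where 5.27% of all genes did not. With library weights *Ldha*, *Lox* and *Angptl4* passed the adjusted p, and *Ldha* also passed it with the enamel matrix level as a covariate and without the 3 libraries richest in enamel matrix reads. Leaving out 1 library let *Lox* pass it without Osterix-Cre 50, and *Ldha* and *Angptl4* without *Tgfbr2cko* 56. The median log2 fold change of the 27 was 0.17, with 19 positive and 8 negative.

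*Ldha* had values of 9.32, 9.39, 9.29 and 9.30 in the controls against 10.36, 10.43, 10.09 and 9.44 in the mutants. The controls were nearly level, and *Tgfbr2cko* 56 was the mutant closest to them. The log2 fold change was 0.75 (SE 0.21), which is 1.69-fold, with a p of 0.00365 in limma-trend, an adjusted p of 0.153 and an exact permutation p of 0.0286. *Ankrd37*, an ankyrin repeat gene used as a hypoxia marker, had values of 2.05, 2.74, 2.26 and 1.48 in the controls against 3.22, 3.82, 3.32 and 2.23 in the mutants. It was 2.02-fold higher on average with *Tgfbr2cko* 56 inside the control range, with a log2 fold change of 1.02 (SE 0.36), a p of 0.0136 in limma-trend, an adjusted p of 0.314 and an exact permutation p of 0.0857. Without *Tgfbr2cko* 54 the change was 0.79 with a p of 0.0554 in limma-trend and missed the call.

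*Slc2a1* had values of 3.91, 4.63, 4.41 and 3.68 in the controls against 4.62, 4.62, 4.97 and 5.17 in the mutants, a log2 fold change of 0.68 (SE 0.23, p of 0.0107 in limma-trend, adjusted p of 0.275, exact permutation p of 0.0857). *Hk2* had values of 4.17, 4.26, 3.72 and 3.21 in the controls against 4.58, 4.17, 4.19 and 5.16 in the mutants, a log2 fold change of 0.69 (SE 0.28, p of 0.0275 in limma-trend, adjusted p of 0.449, exact permutation p of 0.143). Both overlapped between genotypes and both were highest in *Tgfbr2cko* 56. Without that library the changes were 0.58 for *Slc2a1* and 0.47 for *Hk2*, and neither met the call. They also missed it without Osterix-Cre 52 (0.53 and 0.48), with library weights (0.56 and 0.50) and without the 3 libraries richest in enamel matrix reads (0.38 and 0.65), and *Hk2* missed it without Osterix-Cre 51 (0.65) and with the enamel matrix level as a covariate (0.52) as well.

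*Lox* had values of 8.18, 8.07, 8.56 and 9.25 in the controls against 7.21, 7.67, 7.68 and 6.99 in the mutants, which did not overlap. It was 2.19-fold lower, with a log2 fold change of -1.13 (SE 0.25), a p of 5.31e-04 in limma-trend, an adjusted p of 0.0546 and an exact permutation p of 0.0286. *Angptl4* had values of 6.44, 6.99, 6.56 and 6.43 in the controls against 6.09, 5.69, 5.30 and 6.17 in the mutants, which did not overlap either. It was 1.73-fold lower, with a log2 fold change of -0.79 (SE 0.20), a p of 0.00183 in limma-trend, an adjusted p of 0.11 and an exact permutation p of 0.0286. *P4ha1*, a collagen prolyl hydroxylase subunit, had a change of 0.58 (SE 0.20) with a p of 0.0142 in limma-trend and an exact permutation p of 0.0857 and was just short of 1.5-fold. It met the call in 8 alternatives, those with library weights, quantile normalization or the enamel matrix level as a covariate, without Osterix-Cre 51 or 52, without *Tgfbr2cko* 53 or 56, and without the 3 libraries richest in enamel matrix reads.

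**Figure D4:**
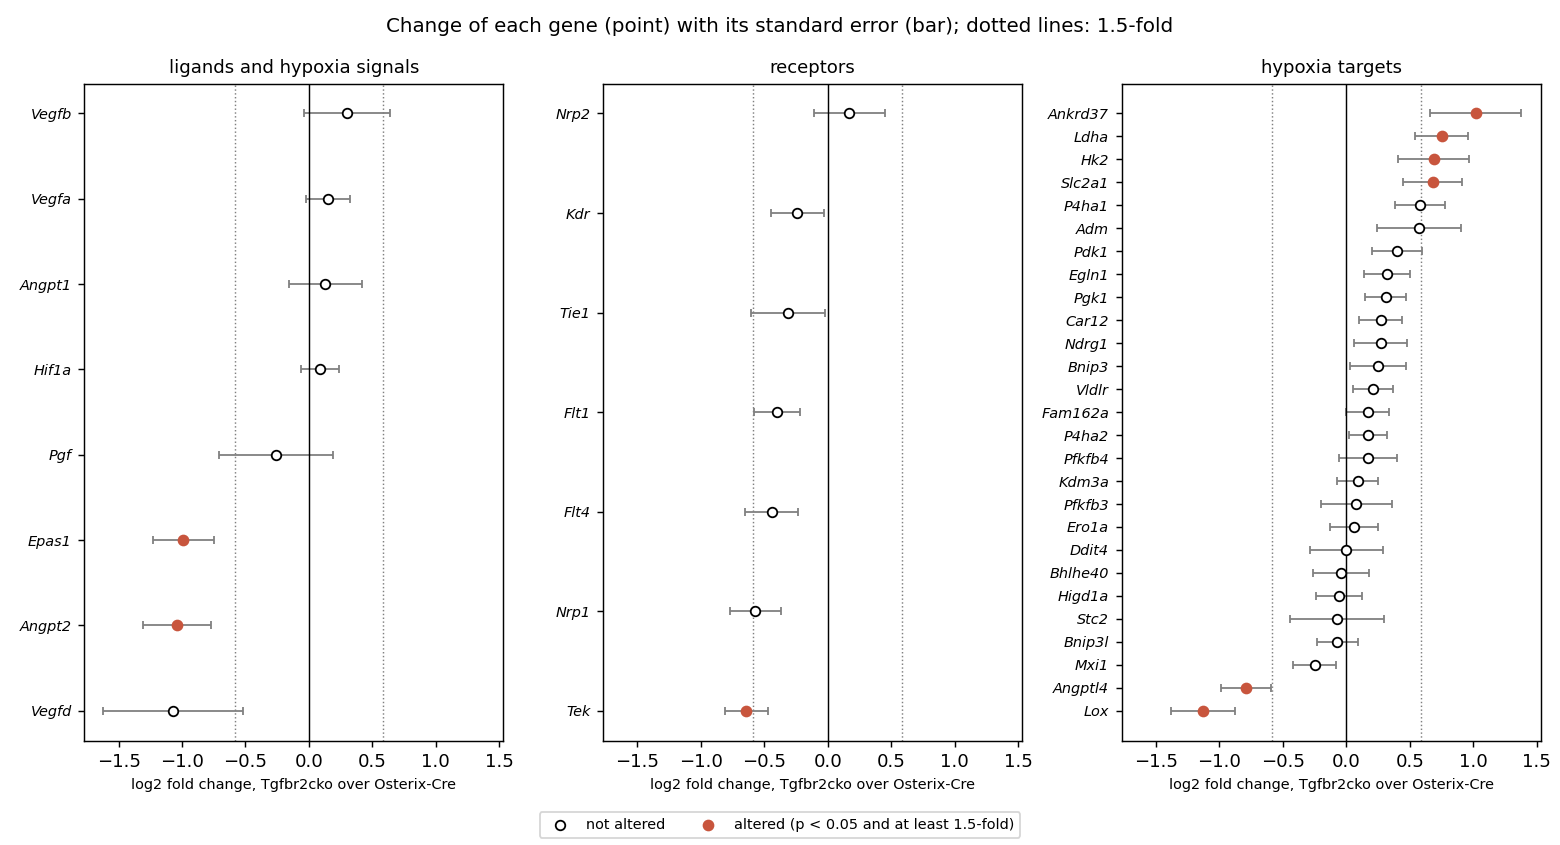
Log2 fold change (*Tgfbr2cko* over Osterix-Cre) with its standard error for the 8 ligands and hypoxia signals, the 7 receptors and the 27 hypoxia targets, with filled points for altered genes and dotted lines at 1.5-fold. *Angpt2*, *Epas1*, *Tek*, *Lox* and *Angptl4* are the filled points below 0, and *Ankrd37*, *Ldha*, *Hk2* and *Slc2a1* the filled points above 0.

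HIF binds DNA through the core letters ACGTG, and promoter windows from 250 bases before to 50 bases after the RefSeq start of a gene were searched for this core on both strands. A palindromic CACGTG counts on both. Of the 10 genes, 7 have a promoter in the RefSeq table and 3 of these hold the core in at least 1 window: *Vegfa*, *Hif1a* and *Egln3*. It is found in 19.6% of all 32851 RefSeq windows, and among the 9556 genes of the expression table with a window 29.3% hold it in any of their windows. Of the 27 hypoxia targets, 22 have a window and 15 (68.2%) hold the core, which counts 4 of the 4 altered higher with a window and 11 of the 18 (61.1%) not altered. The targets altered lower, *Lox* and *Angptl4*, have no window and could not be searched. A match is a description of these letters and not a site at which HIF was measured. The windows of the 2 ligand and HIF genes of the table that hold the core and of the 4 targets that rose are shown 5′ to 3′ on the strand of the gene, from RefSeq on GRCm38.p6, with the core or its reverse complement CACGT in capitals.
Vegfa: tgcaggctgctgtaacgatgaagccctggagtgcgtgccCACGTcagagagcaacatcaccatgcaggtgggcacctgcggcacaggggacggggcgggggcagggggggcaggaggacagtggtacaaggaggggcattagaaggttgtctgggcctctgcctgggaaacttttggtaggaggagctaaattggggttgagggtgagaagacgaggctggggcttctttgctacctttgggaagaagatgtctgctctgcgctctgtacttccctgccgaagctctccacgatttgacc
Hif1a: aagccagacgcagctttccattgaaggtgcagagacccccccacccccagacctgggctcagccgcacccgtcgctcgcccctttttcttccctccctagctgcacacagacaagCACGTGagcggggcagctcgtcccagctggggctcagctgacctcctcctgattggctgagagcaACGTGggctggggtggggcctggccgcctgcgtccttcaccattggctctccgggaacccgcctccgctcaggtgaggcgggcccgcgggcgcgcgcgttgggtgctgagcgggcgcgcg
Ldha: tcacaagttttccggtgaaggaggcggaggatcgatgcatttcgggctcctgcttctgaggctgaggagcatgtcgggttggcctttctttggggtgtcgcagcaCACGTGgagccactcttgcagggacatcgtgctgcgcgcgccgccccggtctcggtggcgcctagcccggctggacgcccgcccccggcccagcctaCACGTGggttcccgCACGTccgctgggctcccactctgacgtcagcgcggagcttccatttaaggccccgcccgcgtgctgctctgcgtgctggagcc
Ankrd37: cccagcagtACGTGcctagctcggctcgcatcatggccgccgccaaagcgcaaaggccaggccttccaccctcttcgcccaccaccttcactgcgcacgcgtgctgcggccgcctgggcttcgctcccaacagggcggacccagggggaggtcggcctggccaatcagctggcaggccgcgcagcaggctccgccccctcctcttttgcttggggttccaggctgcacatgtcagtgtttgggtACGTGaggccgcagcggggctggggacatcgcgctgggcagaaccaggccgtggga
Slc2a1: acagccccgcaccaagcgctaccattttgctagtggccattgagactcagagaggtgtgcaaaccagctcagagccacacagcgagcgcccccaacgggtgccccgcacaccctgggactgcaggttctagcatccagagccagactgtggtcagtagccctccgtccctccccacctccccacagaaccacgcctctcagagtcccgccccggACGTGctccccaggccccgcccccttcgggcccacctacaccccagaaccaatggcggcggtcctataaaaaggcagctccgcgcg
Hk2: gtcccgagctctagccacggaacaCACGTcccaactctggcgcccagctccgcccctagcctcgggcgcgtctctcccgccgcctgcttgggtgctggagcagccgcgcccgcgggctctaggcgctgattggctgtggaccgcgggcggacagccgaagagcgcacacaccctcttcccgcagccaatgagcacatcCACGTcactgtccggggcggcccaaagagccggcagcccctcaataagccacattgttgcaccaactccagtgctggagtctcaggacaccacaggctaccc

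In the first *Vegfa* window (chr17:46032328-46032627, minus strand) there were 0 matches. The *Vegfa* window shown is that of a second RefSeq start (chr17:46025114-46025413, minus strand), which lies downstream of the first within the gene. The match is thus not at the first *Vegfa* start. The others lie at chr12:73907617-73907916 (*Hif1a*, plus strand), chr7:46845554-46845853 (*Ldha*, plus strand), chr8:45999801-46000100 (*Ankrd37*, minus strand), chr4:119108495-119108794 (*Slc2a1*, plus strand) and chr6:82774405-82774704 (*Hk2*, minus strand). Among the windows shown, *Ldha* has the most separate runs of capitals, 3, and *Slc2a1* has 1. A second *Ldha* window (chr7:46846832-46847131, plus strand) had 0 matches. Of the genes shown, the 4 targets were altered and *Vegfa* and *Hif1a* were not. The 4 targets were shown because they rose, so this contrast was set by the choice of windows. Of the targets with a window that were not altered, 11 of 18 also hold the core.

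Other angiogenic factors and inhibitors numbered 24, of which 22 were in the table and 1 (4.55%) was altered, a share near the 5.77% of all genes. That gene was *Spry1*, an inhibitor of receptor tyrosine kinase signaling, which includes signaling by FGF and VEGF receptors. Its values were 2.47, 2.36, 2.44 and 2.70 in the controls against 3.80, 4.14, 4.08 and 3.20 in the mutants, with every mutant above every control. It was 2.48-fold higher, with a log2 fold change of 1.31 (SE 0.24), an exact permutation p of 0.0286, a p of 1.30e-04 in limma-trend and an adjusted p of 0.0205, which ran from 0.0012 to 0.0857 over the alternatives. *Timp3*, a metalloproteinase inhibitor that blocks VEGF binding to *Kdr*, had a change of -0.41 (p of 0.0331 in limma-trend, exact permutation p of 0.0857) and did not reach 1.5-fold, and the median of the 22 was 0.04.

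Vessel markers were measured beside these genes. The 11 endothelial markers, all in the table, summed to 565 to 785 CPM in the controls against 469 to 598 CPM in the mutants, with a median log2 fold change of -0.28, 10 of 11 negative and 1 altered, *Cldn5*, which was lower. Of all genes 3.65% were altered and lower, and the counts of altered markers below are to be read against that share. The defining markers *Pecam1* and *Cdh5* had changes of -0.28 and -0.27 (exact permutation p of 0.0571 and 0.457). Of the pericyte and smooth muscle markers, 8 of 10 were in the table, their sum was 699 to 988 CPM in the controls against 484 to 886 CPM in the mutants, and their median log2 fold change was -0.31, with 6 of 8 negative. *Rgs5* (log2 fold change -0.83, exact permutation p of 0.0286) and *Pdgfrb* (-0.69, p of 0.0857) were altered and lower, and *Rgs5* had an adjusted p of 0.0212 in limma.

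*Angpt2* was therefore also set against the mean log2 value of the 11 endothelial markers in the same library. That difference was -2.11, -1.98, -1.28 and -1.91 in the controls against -2.12, -2.05, -3.03 and -2.89 in the mutants. *Tgfbr2cko* 53 and 54 lay next to the lowest controls and the other 2 mutants were lower by more than 0.5. The shift was -0.70, smaller than the -1.04 of *Angpt2* itself, with an exact permutation p of 0.0571 (0.0714 adjusted over the 5 differences). For *Epas1* the same difference was 1.58, 1.13, 1.20 and 1.22 in the controls against 1.24, 0.40, 0.85 and 0.05 in the mutants, where *Tgfbr2cko* 53 lay among the controls. Its shift of -0.65 had an exact permutation p of 0.114 (0.114 adjusted). The endothelial mean itself was 5.57 ± 0.21 (SD, n = 4) in the controls against 5.23 ± 0.15 (SD, n = 4) in the mutants, a difference of -0.34 with an exact permutation p of 0.0571.

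Markers of other cell types also differed between libraries. The 7 macrophage markers summed to 682 to 1010 CPM in the controls against 406 to 846 CPM in the mutants, with a median log2 fold change of -0.50, 7 of 7 negative and 3 altered and lower. The 7 odontoblast markers had a median change of -0.44, with 4 of 7 negative and 1 altered, *Bglap*, which was lower. The 10 enamel organ markers summed to 4190 to 23500 CPM in the controls against 4460 to 196000 CPM in the mutants, with *Cdh1* and *Klk4* altered, 1 higher and 1 lower. Of the 5 red blood cell markers, 0 were altered. The part of these cell types in the changes of *Angpt2* and *Epas1* was not tested. Without the 3 libraries richest in enamel matrix reads both genes met the call, and their shifts against the endothelial mean were -0.36 each, with exact permutation p of 0.3 for *Angpt2* and 0.4 for *Epas1*.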

How the data were processed

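Total RNA of P7 first molar pulp was amplified from a low input and sequenced. The authors trimmed reads with fastp 0.21.0, aligned them with HISAT2 2.1.0 to GRCm38.p5 and counted them per gene with featureCounts (Subread 2.0.1), as the submitters' processing notes list these tools and the build; whether the counting used strand is not given in the sources used here. The authors kept genes that the CLEAR workflow lists as quantifiable and applied voom, and the deposited values are log2 CPM with 0.5 added to each count. By that formula all 97184 values gave whole reads (largest distance from a whole read 3.61e-08). Amplified reads carried no molecular identifiers, so counts are not independent molecules. Identifiers were matched without version to GENCODE M21, for 12144 of 12148.

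Genotypes were compared on the deposited log2 values in R 4.3.3 with limma 3.58.1 (moderated, two-sided, intensity trend on; all 8 libraries, no covariate), with Benjamini-Hochberg adjustment over the 12148 genes. The fit was tested on simulated data. For single values the 70 arrangements of the libraries gave an exact permutation p, also two-sided. A fold change on this scale slightly understates the change of low genes. Named genes are every member gene, the receptors, every altered gene of a pathway list and the defining endothelial and pericyte markers. Not all defining markers of the other cell types are named. *Cldn5*, *Bglap*, *Cdh1* and *Klk4* are named as altered markers. *Cited2*, *Egln1*, *Arnt*, *Vhl*, *P4ha1* and *Timp3* were named after their values were seen. The member genes and lists were chosen with earlier results of these data known. Alternatives were other weights, normalizations, pseudocounts, filters and thresholds, averaged title numbers, an enamel covariate and libraries left out; omitting the 3 libraries richest in enamel matrix reads was chosen after seeing the data. Figures used Python 3.11.15 and matplotlib 3.10.9.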

Additional observations from a re-analysis of the deposited data

Results flagged for a closer look

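*Tek* in Osterix-Cre 50 had a log2 value of 5.41, apart from the other 3 controls at 4.89 to 4.96, and the gap to the nearest took 86.8% of the range of the 4 libraries, above Dixon's 95% critical value. Of 54 groups of 4 libraries examined in this way this was the 1 that passed, and chance passes about 1 in 20. Without this library *Tek* was not altered (log2 fold change -0.51), as given above.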

How the results depend on the processing

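*Angpt2* and *Epas1* were altered under every alternative that refitted the genes at the same thresholds, joined by *Vegfd* without *Tgfbr2cko* 53 and by *Pgf* without *Tgfbr2cko* 56. At 2-fold 1 of the 8 genes was altered, and at an adjusted p under 0.05 0 were. Altered receptors numbered 0 at 2-fold and 0 by adjusted p, 0 to 2 with 1 library left out, and 3 (*Flt1*, *Tek* and *Tie1*) without the 3 libraries richest in enamel matrix reads, a setting that moved the median of all genes to 0.107. Oxygen sensing genes numbered 0 to 1 with 1 library left out and 1 (*Egln1*) without those 3 libraries. Hypoxia targets numbered 2 at 2-fold, 0 by adjusted p, 5 to 7 with 1 library left out and 9 without those 3 libraries, where *Bnip3*, *Adm*, *P4ha1*, *Stc2* and *Egln1* were added and *Slc2a1* and *Hk2* lost. Other angiogenic factors numbered 4 with library weights, 2 after quantile normalization, 2 after median centring, 2 with title numbers averaged, 4 with the enamel covariate, 6 without the 3 libraries and 1 to 4 with 1 library left out. With 1 library left out the log2 fold changes ran from -0.05 to 0.52 for *Vegfb*, from -0.79 to 0.03 for *Pgf*, from -0.06 to 0.46 for *Angpt1*, from -0.02 to 0.15 for *Hif1a* and from -0.09 to 0.36 for *Nrp2*. For *Vegfa* they ran from 0.05 to 0.23. Signs also turned for *Angpt1* (-0.05) and *Nrp2* (-0.01) with library weights, for *Nrp2* (-0.05) with the enamel covariate, and for *Vegfd* (0.03), *Hif1a* (-0.07) and *Nrp2* (-0.47) without the 3 libraries. With 1 library left out the within-library shifts ran from -1.46 to -0.95 for *Angpt2* against *Angpt1*, from 0.87 to 1.32 for *Hif1a* against *Epas1*, from -0.86 to -0.52 for *Angpt2* against the endothelial mean and from -0.85 to -0.45 for *Epas1* against it. Without the 3 libraries these shifts were -0.87, 0.78, -0.36 and -0.36. The causes were not tested. Depth limits *Vegfd* most, with 5 reads in its lowest library. The genotypes share fewer than 2 title numbers, and no paired analysis was run.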

Other observations

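The genes whose values most resembled those of each ligand or HIF gene were ranked by Pearson's r over the 8 libraries after the genotype means were taken out, among genes whose log2 values averaged 3 or more. These r values are a description of libraries that share a total and an amplification, with no p. For each gene the 3 highest of at most 10313 genes are named. A search of that size over 8 libraries can give high r values for unrelated genes. Shared regulation was not tested. *Pgf* went most with *Igf1*, an angiogenic growth factor (r = 0.98), *Ephb3*, an ephrin receptor (r = 0.97), and *Cygb*, a cytoglobin (r = 0.96), and these r values were 0.86, 0.86 and 0.85 without *Tgfbr2cko* 56. *Angpt1* went most with *Itga1*, a collagen-binding integrin subunit (r = 0.97), *Ncoa4* and *Banp* (r = 0.96 each). *Angpt2* went most with *Gpalpp1* (r = 0.99), *Prpf31* (r = 0.98) and *Rabgef1* (r = 0.97), and *Epas1* with *Zfp820* (r = 0.98), *Ap1ar* and *Hs1bp3* (r = 0.97 each). *Vegfa* went most with *Kank2* (r = 0.99), *Kidins220* and *Oxnad1* (r = 0.98 each), *Hif1a* with *Dnm2*, *Myo1c* and *Phrf1* (r = 0.97 each), *Vegfb* with *Ccdc163* (r = 0.99), *Ccdc59* and *Emsy* (r = 0.98 each), and *Vegfd* with *3110040N11Rik* (r = 1.00), *Mthfsl* and *Hint2* (r = 0.99 each). Between the genes themselves, *Angpt2* and *Epas1*, which were both lower in the mutants, had an r of 0.14 within genotypes and of -0.24 without *Tgfbr2cko* 56.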
